A study of Mus musculus with 8 samples.

Results

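The genes described here encode 9 enzymes that make serine and pass its carbon into the folate and methionine cycles: Phgdh, Psat1, Psph, Shmt1, Shmt2, Mthfd1, Mthfd2, Mthfd1l and Mtr. They were chosen by name, with earlier results of these data known, and are 9 of the 54532 genes in the deposited count table. All 9 passed the filter on low counts, as did 13560 genes in all. RNA-Seq had been performed on LSK cells (Lin- c-Kit+ Sca-1+ bone marrow cells, the fraction that contains hematopoietic stem and progenitor cells, HSPCs) sorted into EpCAM+ and EpCAM- fractions, with 4 libraries of each. EpCAM is an adhesion glycoprotein of epithelia. The mice were Zeb1 fl/fl;Mx1-Cre+ on a C57BL/6 background, 8 to 12 weeks old, and RNA was taken on day 14 after dosing with pIpC had ended. This agent induces the interferon-responsive Mx1-Cre and so deletes Zeb1, which encodes a transcription factor of epithelial-mesenchymal transition. Both fractions were therefore Zeb1-/-, and no library from undeleted mice was compared. Mx1-Cre also recombines outside the blood system, which limits both fractions as a model. The labels name 4 mice per group, and whether both fractions came from the same mice is not stated. The p-values here measure the spread among these 8 libraries.

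Serine is made in the cytosol from a glycolytic intermediate by Phgdh, Psat1 and Psph acting in sequence. The Shmt enzymes split it into glycine and a methylene group carried on tetrahydrofolate, in the cytosol (Shmt1) or in mitochondria (Shmt2), and the Mthfd enzymes interconvert the folate-bound carbon and move it between compartments as formate. Dividing blood cells draw on this carbon for purines and thymidylate, and Mtr passes it on to methionine, so the pathway is a known target of antifolate drugs in leukemia.

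Promoter windows from RefSeq (GRCm38.p6, 250 bases before to 50 bases after a transcript start) were matched by symbol for 9 of 9 enzymes, with 10 windows in all because Psat1 has a pair. They were searched on both strands for CAGGTG and CAGGTA, the E-boxes bound by Zeb1, for CACGTG, the E-box bound by Myc, and for TGATGNAA, a composite Cebp-Atf element at which Atf4 can bind. Only 2 of the 9 enzymes held a match, both to CAGGTA. The 250 bases upstream of these 2 genes are printed here for their matches, and those of Mthfd1 because it had the largest fold change of the enzymes; lower case is sequence without a match and capitals mark the match, which for Shmt1 is read on the reverse strand as TACCTG.
Phgdh (chr3:98339970-98340219, - strand): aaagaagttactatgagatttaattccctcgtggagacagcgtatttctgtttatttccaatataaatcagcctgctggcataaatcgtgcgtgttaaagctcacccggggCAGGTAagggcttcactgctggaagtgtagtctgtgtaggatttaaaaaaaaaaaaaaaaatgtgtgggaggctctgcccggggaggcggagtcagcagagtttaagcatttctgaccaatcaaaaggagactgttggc
Shmt1 (chr11:60811266-60811515, - strand): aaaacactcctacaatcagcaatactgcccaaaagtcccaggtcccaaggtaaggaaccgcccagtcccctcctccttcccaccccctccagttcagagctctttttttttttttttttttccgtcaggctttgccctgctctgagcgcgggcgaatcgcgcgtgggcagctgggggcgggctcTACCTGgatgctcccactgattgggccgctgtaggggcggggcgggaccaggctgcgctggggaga
Mthfd1 (chr12:76254982-76255231, + strand): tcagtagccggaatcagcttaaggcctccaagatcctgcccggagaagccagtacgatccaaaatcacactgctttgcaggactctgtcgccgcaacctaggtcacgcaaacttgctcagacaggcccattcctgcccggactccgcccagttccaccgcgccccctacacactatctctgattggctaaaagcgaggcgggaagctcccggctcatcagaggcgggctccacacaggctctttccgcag
The Phgdh match begins 139 bases before the start and the Shmt1 match 66 bases before it. Of the 32851 windows of all genes, 3929 held CAGGTA, against 20.2% with CAGGTG, 7.15% with CACGTG and 3.97% with TGATGNAA. A match is a description of the letters and not a binding site.

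The libraries held 15225714 to 17073546 reads on genes in the EpCAM+ fraction and 14114491 to 15929923 in the EpCAM- fraction. Epcam transcripts followed the sort, at 187 ± 32.7 CPM (mean ± SD, n = 4) in EpCAM+ and 3.86 ± 3.61 in EpCAM- LSK cells. CPM are counts per 1000000 reads on tested genes, scaled by TMM, which corrects the library size for unequal composition. Zeb1 was at 19.5 ± 3.75 and 11.9 ± 2.14 CPM, and without an undeleted library these counts could not be read as a check of the deletion. Of the sort markers, Kit was at 285 ± 39.9 and 208 ± 38.2 CPM, while Ly6a, which encodes Sca-1, was at 201 ± 106 CPM in EpCAM+ and at 41.3 ± 29.4 CPM in EpCAM- LSK cells, where libraries 3 and 4 had 16.4 and 15.7 CPM. EpCAM+ library 1 stood apart from its fraction: its summed level of B and plasma cell markers was 45479 CPM against 3334.6 to 5586 CPM in the other 3. In bulk libraries, fewer cells of a type and less RNA per cell cannot be told apart.

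Transcripts of 8 of the 9 enzymes were lower in Zeb1-/- EpCAM+ than in EpCAM- LSK cells and none was higher (edgeR's quasi-likelihood test, Benjamini-Hochberg adjusted p under 0.05 over all tested genes). Psph was the exception and did not pass. Among all tested genes 20.8% were lower and 21.8% higher in the EpCAM+ fraction. In TMM-scaled CPM the 4 EpCAM+ values lay wholly below the 4 EpCAM- values for the same 8 enzymes. Of all tested genes, 40.1% separated the fractions in 1 direction or the other. Mtr did not separate them in levels per gene length, given further below. The median log2 fold change, EpCAM+ over EpCAM-, was -0.46 over the 9 enzymes and 0.02 over all tested genes. Together the 9 genes took 0.111% to 0.131% of the reads in EpCAM+ libraries and 0.150% to 0.177% in EpCAM- libraries. As above, all CPM values below are scaled by TMM, and values of single libraries are in the order of libraries 1 to 4.

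**Figure D1:**
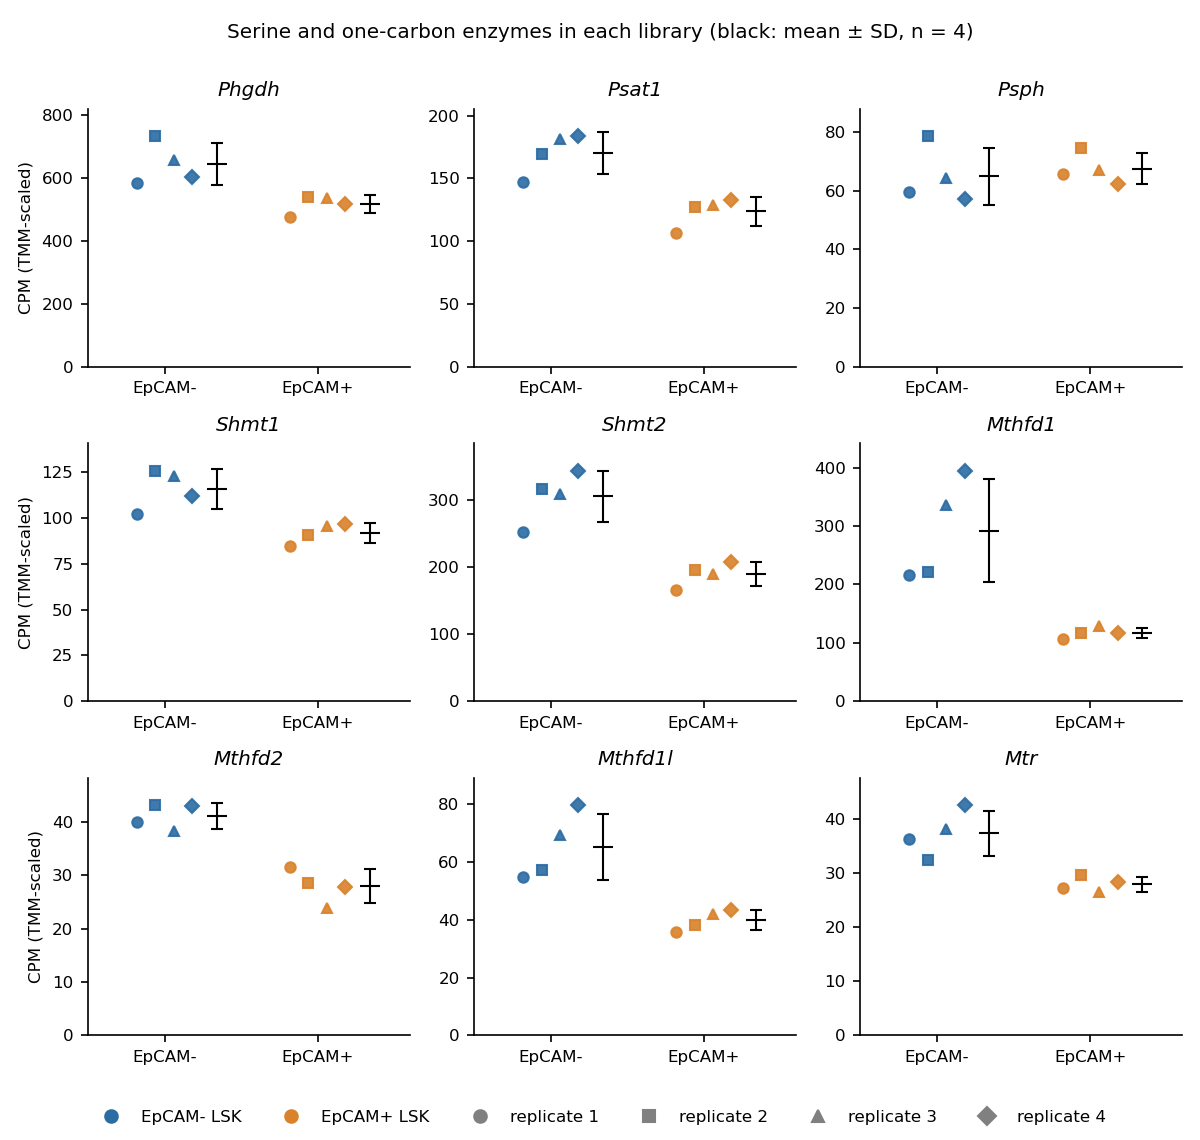
Level of each enzyme in each library (vertical axis, TMM-scaled CPM from 0, a separate scale per gene), with EpCAM- LSK cells in blue, EpCAM+ in orange, symbols for the replicate number and black marks for the mean ± SD (n = 4). The orange points lie below all blue points in 8 panels, and in the Psph panel the fractions overlap.

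Phgdh oxidizes the glycolytic intermediate 3-phosphoglycerate and thereby commits carbon to serine. Its gene (ENSMUSG00000053398, GRCm38, chromosome 3, 98313170 to 98339990, minus strand) gave 477, 540, 536 and 518 CPM in the EpCAM+ libraries and 583, 732, 658 and 605 CPM in the EpCAM- libraries. The highest EpCAM+ library was still under the lowest EpCAM- library, and EpCAM- library 2 was the highest of the 8. The means were 518 ± 28.6 and 645 ± 66.3 CPM (SD, n = 4 each), a log2 fold change of -0.32 (SE 0.09, edgeR adjusted p = 0.0163), or 19.7% lower. This was the smallest of the 8 falls, and it depended on the scaling: with upper-quartile scaling it was -0.23 (adjusted p = 0.0674) and with library totals -0.23 (adjusted p = 0.0634). Only 1 read in all 8 libraries was assigned to its pseudogene Phgdh-ps1.

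Psat1, the aminotransferase that takes the amino group from glutamate, fell further. In the EpCAM+ libraries the gene (ENSMUSG00000024640, chromosome 19, 15904678 to 15947337, minus strand) stood at 107, 127, 128 and 133 CPM, and in the EpCAM- libraries at 147, 170, 182 and 184 CPM. Library 1 was the lowest of each fraction, and the fractions did not overlap. From 170 ± 16.8 CPM in EpCAM- the level was down to 124 ± 11.6 CPM in EpCAM+ LSK cells, a log2 fold change of -0.46 (SE 0.09, adjusted p = 0.00353).

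Psph, the phosphatase that releases free serine, did not pass the test. Levels of the gene (ENSMUSG00000029446, chromosome 5, 129765558 to 129787449, minus strand) were 65.8, 74.8, 67.2 and 62.2 CPM in EpCAM+ and 59.5, 78.6, 64.4 and 57.1 CPM in EpCAM- libraries. The EpCAM+ range lay within the EpCAM- range. Means were 67.5 ± 5.30 and 64.9 ± 9.60 CPM, with a log2 fold change of 0.06 (SE 0.11, adjusted p = 0.687). Psph shares 452 bases at its 5' end with Cct6a, a chaperonin subunit gene on the opposite strand. Cct6a, named after its values were seen, had 69947 reads in the 8 libraries against 8224 for Psph and a log2 fold change of -0.56 (adjusted p = 0.000841). Whether reads were counted by strand is not given in the sources used here, so reads from the shared stretch could not be told apart. The other overlaps held fewer reads than the enzymes they touched: Smcr8, which overlaps Shmt1 by 184 bases, had 869 reads against 12750, and no other overlapping gene had more than 20.

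Shmt1, the cytosolic serine hydroxymethyltransferase (ENSMUSG00000020534, chromosome 11, 60788104 to 60811718, minus strand), gave 84.6, 90.7, 95.6 and 96.6 CPM in EpCAM+ libraries. Its EpCAM- values were 102, 126, 123 and 112 CPM. Every EpCAM+ library was lower than every EpCAM- library, although the nearest values of the fractions were close. The drop from 116 ± 10.9 to 91.9 ± 5.48 CPM corresponded to a log2 fold change of -0.33 (SE 0.08, adjusted p = 0.00933).

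Shmt2, the mitochondrial enzyme of the same reaction (ENSMUSG00000025403, chromosome 10, 127517123 to 127522444, minus strand), showed a wider gap. EpCAM+ libraries had 166, 196, 190 and 207 CPM and EpCAM- libraries 253, 317, 309 and 344 CPM. As for Psat1, library 1 was the lowest and library 4 the highest within each fraction. The log2 fold change was -0.69 (SE 0.10, adjusted p = 0.000833), from 306 ± 38.2 CPM in EpCAM- to 190 ± 17.7 CPM in EpCAM+, or 38.0% lower.

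Mthfd1, the cytosolic trifunctional enzyme that interconverts the folate-bound forms of the carbon, had the largest difference of the 9. The gene (ENSMUSG00000021048, chromosome 12, 76255298 to 76319803, plus strand) was at 106, 117, 128 and 117 CPM in EpCAM+ libraries and at 216, 222, 335 and 394 CPM in EpCAM- libraries. The EpCAM+ values were tight, whereas EpCAM- libraries 3 and 4 lay well above libraries 1 and 2. Means of 117 ± 8.85 and 292 ± 87.8 CPM gave a log2 fold change of -1.32 (SE 0.18, adjusted p = 0.000547), or 59.9% lower in EpCAM+ cells. Without EpCAM- library 4 the log2 fold change was -1.14 (adjusted p = 0.000889), and without library 3 it was -1.25 (adjusted p = 0.00295).

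Mthfd2 is a mitochondrial methylenetetrahydrofolate dehydrogenase and cyclohydrolase known from dividing and embryonic cells (ENSMUSG00000005667, chromosome 6, 83305691 to 83325908, minus strand). The gene was low beside most of the other enzymes in all libraries. It was measured at 31.5, 28.6, 23.9 and 27.8 CPM in EpCAM+ and at 40.0, 43.1, 38.2 and 42.9 CPM in EpCAM- libraries. The spread within a fraction was small beside the step between them. Levels averaged 27.9 ± 3.13 and 41.0 ± 2.37 CPM, and the log2 fold change was -0.55 (SE 0.10, adjusted p = 0.00170).

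Mthfd1l, which makes formate for export from mitochondria, was 38.8% lower in EpCAM+ cells. Values at this locus (ENSMUSG00000040675, chromosome 10, 3973118 to 4167081, plus strand) were 36.0, 38.3, 42.1 and 43.3 CPM in EpCAM+ and 54.8, 57.3, 69.3 and 79.7 CPM in EpCAM- libraries. In both fractions they stood in the same order of libraries, with library 4 highest. Averages were 39.9 ± 3.38 and 65.3 ± 11.5 CPM, for a log2 fold change of -0.71 (SE 0.12, adjusted p = 0.00156).

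Mtr, methionine synthase, uses methyl-tetrahydrofolate and cobalamin to methylate homocysteine. The gene (ENSMUSG00000021311, chromosome 13, 12182712 to 12258113, minus strand) was at 27.2, 29.7, 26.5 and 28.4 CPM in EpCAM+ and at 36.3, 32.5, 38.2 and 42.5 CPM in EpCAM- libraries. EpCAM- library 2 came close to the EpCAM+ range without reaching it in these TMM-scaled values. The log2 fold change was -0.42 (SE 0.10, adjusted p = 0.00643), from 37.4 ± 4.17 to 27.9 ± 1.39 CPM.

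Libraries with the same replicate number deviated together, so the differences were also read within the 4 numbered pairs. All 8 called enzymes were lower in EpCAM+ in 4 of 4 pairs. Any pairing would give this, because their fractions did not overlap in TMM-scaled CPM, so only the sizes add to it. Psat1 was the most even, at -0.50 to -0.42 on the log2 scale. Mthfd1 ran from -1.76 to -0.92 and Mtr from -0.58 to -0.13, where pair 2 gave the smallest difference for both. Psph was lower in only 1 of 4 pairs, and its differences ran from -0.07 to 0.14. The p-values quoted for single genes come from fits that ignored these pairs. With the replicate number as a block in edgeR's test the same 8 enzymes passed, Phgdh at an adjusted p of 0.00222 and Mtr at 0.00688.

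**Figure D2:**
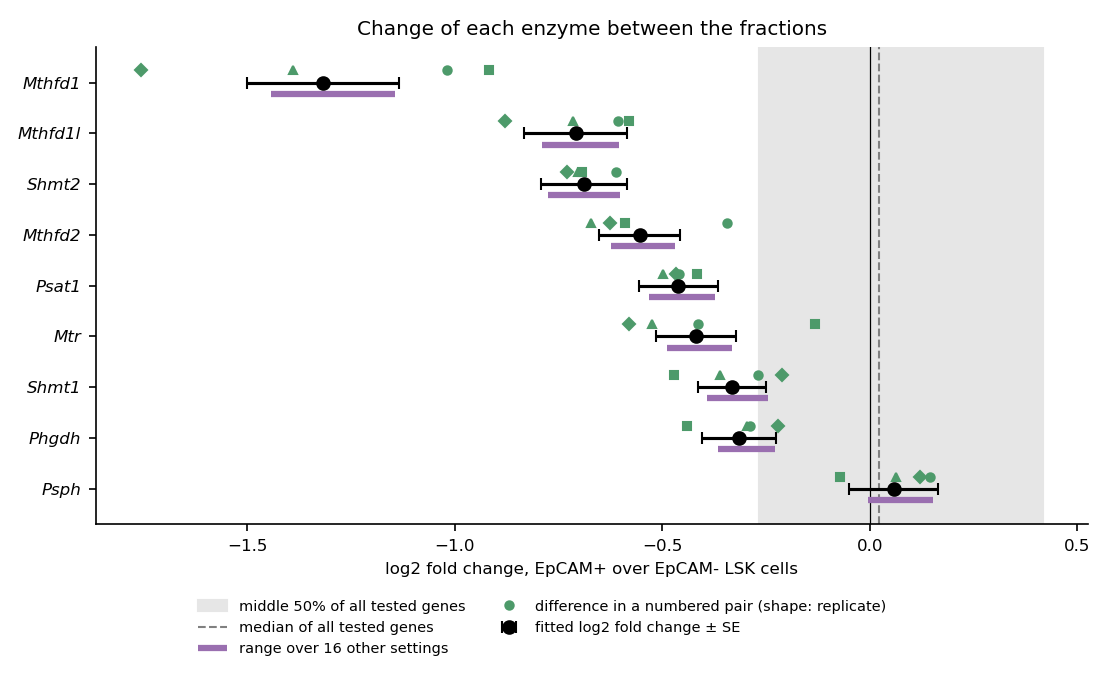
Log2 fold change of each enzyme, EpCAM+ over EpCAM- LSK cells (horizontal axis), with the fitted value ± SE in black, the 4 numbered pairs in green and the range over 16 other settings in purple; the grey band holds the interquartile range of all tested genes and the dashed line their median, 0.02. Mthfd1 lies farthest to the left at -1.32, 7 further enzymes lie between -0.71 and -0.32, and Psph sits at 0.06 inside the band.

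EpCAM+ library 1, with its high B and plasma cell markers, had the lowest CPM of the 8 libraries for Phgdh, Psat1, Shmt1, Shmt2, Mthfd1 and Mthfd1l. Without it the same 8 enzymes passed the test in the same direction, with log2 fold changes from -1.28 for Mthfd1 to -0.28 for Phgdh (adjusted p = 0.0392), and Psph was at 0.06 (adjusted p = 0.704).

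To rank the enzymes against each other, counts were divided by the deposited gene length and scaled to a total of 1000000 in each library (TPM). Phgdh was the most abundant in both fractions, at 534 ± 68.4 TPM in EpCAM+ and 658 ± 53.1 TPM in EpCAM- LSK cells (SD, n = 4 each), followed by Shmt2 at 157 ± 23.0 and 249 ± 23.3 TPM. Mtr was the least abundant, at 8.39 ± 0.865 and 11.1 ± 1.28 TPM. In this unit its fractions overlapped, with 9.45 TPM in the highest EpCAM+ and 9.32 TPM in the lowest EpCAM- library. In the EpCAM+ fraction the order went on from Shmt2 with Psat1 (74.8 TPM), Mthfd1 (67.7 TPM), Shmt1 (60.6 TPM), Psph (40.0 TPM), Mthfd1l (23.1 TPM) and Mthfd2 (20.4 TPM). Neighbours whose libraries overlapped were Psat1 and Mthfd1, Mthfd1 and Shmt1, and Mthfd1l and Mthfd2. In the EpCAM- fraction Mthfd1, at 167 ± 48.0 TPM, stood above Psat1 at 102 ± 8.00 TPM and overlapped with Shmt2, and Psph (38.0 TPM) overlapped with Mthfd1l (37.3 TPM). The other ranks were the same in both fractions. By the authors' FPKM, which imply other gene lengths, Mthfd2 and Mthfd1l exchanged places and the other 7 ranks were kept. The fractions overlapped for Mtr by FPKM too (highest EpCAM+ library 9.51, lowest EpCAM- library 9.47).

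The balance between mitochondrial and cytosolic enzymes was read as a ratio of levels per kilobase within a library, with no test. Shmt2 over Shmt1 was 2.44 to 2.70 in EpCAM+ libraries (2.58 ± 0.133, n = 4) and 3.09 to 3.84 in EpCAM- libraries (3.31 ± 0.357). The ratio was thus lower in every EpCAM+ library, and the log2 means differed by -0.36. For Mthfd1l over Mthfd1 the order was opposite, at 0.327 to 0.371 in EpCAM+ against 0.202 to 0.259 in EpCAM- libraries, a log2 difference of 0.57 without overlap. Mthfd2 over Mthfd1 was 0.238 to 0.377 against 0.138 to 0.248, and here the fractions overlapped. Each gene in these ratios was lower in the EpCAM+ fraction, so the ratios describe unequal falls.

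**Figure D3:**
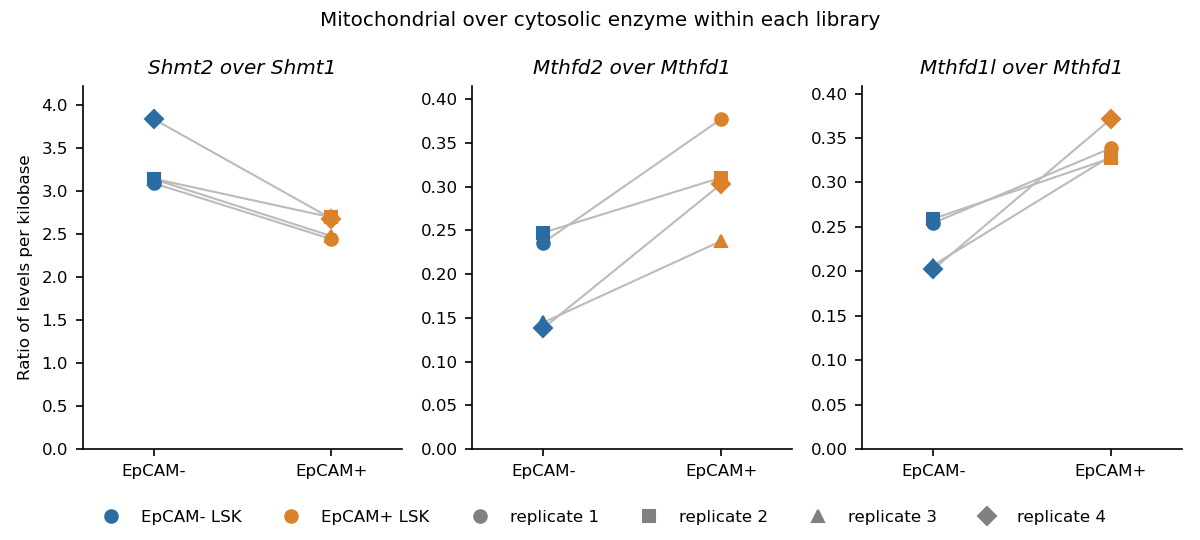
Ratio of levels per kilobase in each library (vertical axis from 0), with lines joining libraries of the same replicate number. Shmt2 over Shmt1 is lower in all 4 EpCAM+ libraries (2.44 to 2.70 against 3.09 to 3.84), Mthfd1l over Mthfd1 is higher in all 4, and Mthfd2 over Mthfd1 overlaps between the fractions.

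How alike the enzymes behaved across the 8 libraries was described by the root-mean-square difference of their log2 CPM, each centered on the gene's own mean. Phgdh and Shmt1 were the closest pair of the 9, at 0.05, and Psph and Mthfd1 the farthest apart, at 0.76. Among all tested genes the 3 closest to Phgdh were Ptpmt1, a mitochondrial phosphatase (0.04), Ostc, a subunit of the oligosaccharyltransferase complex (0.04), and Pdcd2l (0.05), against a median of 0.31 over all genes. Nearest to Shmt2 were Rack1, a component of the small ribosomal subunit (0.04), Mrpl12, a mitochondrial ribosomal protein (0.04), and Snu13, a small nucleolar ribonucleoprotein (0.05), against a median of 0.45. The named genes were not alone: 2.61% of tested genes lay closer than 0.1 to Phgdh and 0.90% closer than 0.1 to Shmt2. These distances share the libraries and their scaling and carry no test.

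Mthfd1 was read beside cell type markers because its EpCAM- libraries spread most. The summed level of 10 erythroid genes was 2105, 2374, 5196 and 7023 CPM in EpCAM- libraries 1 to 4, the same order as Mthfd1 in that fraction, and 122, 114, 154 and 311 CPM in the EpCAM+ libraries. Of these 10 genes 7 were lower and 1 higher in EpCAM+. Neutrophil and monocyte genes summed to 1163.5 to 1865 CPM in EpCAM+ and 12016 to 19262 CPM in EpCAM- libraries (5 of 9 tested genes lower, 0 higher), and mast cell and basophil genes to 268 to 296 and 453 to 757 CPM (4 of 7 lower, 0 higher). Psat1 and Mthfd1l stood in the same order of EpCAM- libraries as Mthfd1 and the erythroid sum. Ly6a (71.7, 61.3, 16.4 and 15.7 CPM) and Epcam (8.99, 3.77, 1.43 and 1.25 CPM) stood in the reverse order there. The order was thus not particular to erythroid genes, and how many genes share it was not counted. The neutrophil and monocyte sum stood in another order, at 19262, 13765.5, 15618 and 12016 CPM in EpCAM- libraries 1 to 4. The part of these cell type genes in the enzymes' differences was not tested.

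**Figure D4:**
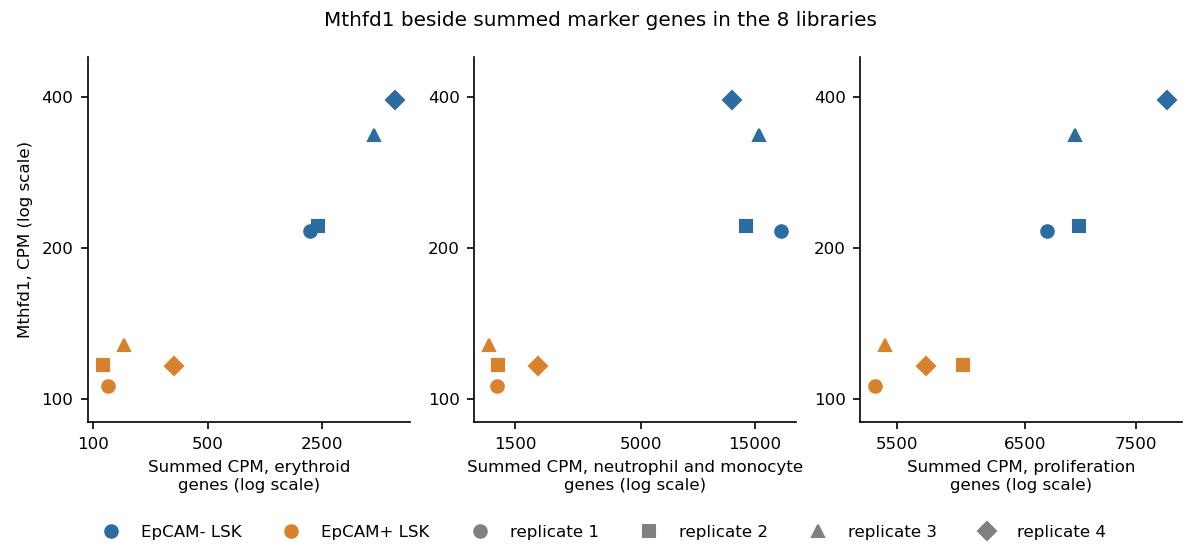
Mthfd1 (vertical axis, CPM, log scale) against the summed CPM of erythroid, neutrophil and monocyte, and proliferation genes (horizontal axes, log scale) in the 8 libraries, 4 per fraction. EpCAM- libraries (blue) lie at higher Mthfd1 and higher sums in all 3 panels, and among them Mthfd1 stands in the same order as the erythroid sum, which spans 2105 to 7023 CPM.

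Of the other marker lists, LSK markers were higher in EpCAM+ for 8 of 10 tested genes and lower for 0, B and plasma cell markers for 6 of 7 (0 lower) and epithelial markers for 6 of 6. Dendritic cell markers were higher for 5 of 8 (0 lower), but their summed level overlapped between the fractions, at 172 to 835 CPM in EpCAM+ and 228 to 313 CPM in EpCAM- libraries. Of 7 megakaryocyte markers 2 were higher, 0 lower and 5 did not pass, with a median log2 fold change of 0.15. For the counts of every list, above and below, the shares over all tested genes were 20.8% lower and 21.8% higher. Of the T and NK cell list 3 of 10 genes could be tested, with 1 lower and 1 higher. The defining markers Pax5 (B cells), Gp6 (megakaryocytes) and Krt19 (epithelium) had 0 reads in all 8 libraries.

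Most proliferation genes were lower with the enzymes. Of 20 tested genes 15 were lower in EpCAM+ LSK cells and 0 higher, and the list's median was -0.35 on the log2 scale against 0.02 over all genes, and their summed level was 5348 to 5993 CPM in EpCAM+ and 6687 to 7815 CPM in EpCAM- libraries. Rrm2, the ribonucleotide reductase subunit that supplies deoxynucleotides, fell from 385 ± 34.2 to 236 ± 32.3 CPM (log2 fold change -0.71, SE 0.11, adjusted p = 0.000808). Ccna2, cyclin A, had a log2 fold change of -0.57 (adjusted p = 0.00165) and Mcm5, a subunit of the replicative helicase, of -0.42 (adjusted p = 0.00181). The 5 genes that did not pass included Mki67 (-0.12, adjusted p = 0.341), Top2a (-0.10, adjusted p = 0.297) and Pcna (-0.16, adjusted p = 0.130). Mcm6 and Tk1 did not pass either. With upper-quartile scaling 11 genes of the list were lower, and with library totals 10. In Zeb1-/- hematopoietic stem cells, a part of the LSK cells, the paper reports no change of cell cycle with EpCAM (Ki67 and DAPI staining). Whether the proliferation list accounted for the enzymes was not tested.

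The rest of the folate cycle went in both directions. Of 12 listed genes 10 were tested, 3 were lower, 3 higher and 4 did not pass, and the list median was 0.07. Gart, the trifunctional enzyme of purine synthesis that uses formyl-tetrahydrofolate, had 141, 148, 157 and 155 CPM in EpCAM+ and 203, 223, 235 and 267 CPM in EpCAM- libraries, a log2 fold change of -0.63 (SE 0.09, adjusted p = 0.000604). Atic, which performs the later formyl transfer of the same pathway, had a log2 fold change of -0.46 (adjusted p = 0.00357). Mthfsl was higher instead, with 49.6 ± 1.32 CPM in EpCAM+ and 37.9 ± 2.84 CPM in EpCAM- LSK cells (log2 fold change 0.39, adjusted p = 0.00311). The thymidylate synthase gene Tyms, named here after its values were seen, was at 275 ± 27.8 and 283 ± 23.4 CPM and did not pass (log2 fold change -0.04, adjusted p = 0.727). Aldh1l2 and Ftcd had too few reads to be tested.

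Genes that bring folate into the cell and hold it there were mostly lower too. Of 7 listed genes 5 were tested, 3 were lower and 1 higher, with a median of -0.38, and Folr1 and Folr2 had too few reads. Fpgs, which adds the polyglutamate tail that retains folate, gave 36.9, 34.8, 36.0 and 31.8 CPM in EpCAM+ and 61.2, 57.7, 82.7 and 92.9 CPM in EpCAM- libraries. As with Mthfd1, EpCAM- libraries 3 and 4 were the highest. The log2 fold change was -1.08 (SE 0.15, adjusted p = 0.000509). Slc19a1, the reduced folate carrier, was also lower (log2 fold change -0.82, adjusted p = 0.000945), while Ggh, the hydrolase that removes polyglutamate tails, was higher at 43.4 ± 3.91 against 31.9 ± 2.75 CPM (log2 fold change 0.45, adjusted p = 0.00453).

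Of the 15 tested genes of serine transport and use, 3 were lower, 1 was higher and 11 did not pass, with a median of -0.03. The lower count was near the share over all tested genes, 20.8%, and the higher count was under theirs, 21.8%. Sfxn1, the mitochondrial serine transporter, had 225, 263, 264 and 274 CPM in EpCAM+ and 367, 423, 432 and 495 CPM in EpCAM- libraries (log2 fold change -0.74, SE 0.10, adjusted p = 0.000495). Its paralog Sfxn3 had the opposite sign, at 68.1 ± 7.21 and 41.6 ± 5.12 CPM (log2 fold change 0.71, adjusted p = 0.000869). Ptdss2, which exchanges serine into phosphatidylserine, fell from 66.8 ± 7.38 to 39.6 ± 2.07 CPM (log2 fold change -0.75, adjusted p = 0.000295). With the replicate block 3 genes of this list were higher rather than 1, against 4 with upper-quartile scaling, 3 with library totals and 2 without EpCAM+ library 1. Slc6a9 and Sds had too few reads to be tested.

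Few genes of the glycine list could be measured: Gldc, Amt, Sardh, Dmgdh and Gnmt had too few reads to be tested. Of the 3 tested genes 2 were lower, with a list median of -0.29. Dld, the dihydrolipoamide dehydrogenase shared with the pyruvate dehydrogenase complex, had a log2 fold change of -0.51 (adjusted p = 0.00049). Gcsh, the lipoyl carrier of the glycine cleavage system, was at -0.29 (adjusted p = 0.0184), a call lost with upper-quartile scaling (adjusted p = 0.0737), with library totals (adjusted p = 0.0758) and without EpCAM- library 3 (adjusted p = 0.0538). Glyctk, glycerate kinase, did not pass (0.47, adjusted p = 0.351).

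In the methionine cycle 5 of 9 tested genes were lower and none was higher, with a median of -0.22. Ahcy, which hydrolyzes S-adenosylhomocysteine, fell from 131 ± 16.9 to 87.3 ± 7.09 CPM (log2 fold change -0.59, SE 0.10, adjusted p = 0.00136). Mmachc and Mmadhc, which process the cobalamin that Mtr needs, had log2 fold changes of -0.42 (adjusted p = 0.0072) and -0.22 (adjusted p = 0.0146). The call of Mmadhc was lost with upper-quartile scaling (adjusted p = 0.0977) and library totals (adjusted p = 0.101), and the list then had 2 lower genes in each. It had 3 lower genes without EpCAM+ library 2 and 3 without EpCAM- library 4. Mat1a, Bhmt, Bhmt2, Cbs and Cth had too few reads to be tested, so that the transsulfuration genes contributed nothing to these counts.

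Among 15 tested genes of Atf4 and the amino acid response, a program known to induce Phgdh, Psat1, Shmt2 and Mthfd2, 6 were lower and 3 higher, with a median of -0.09. Asns, asparagine synthetase and a known Atf4 target, had 34.3, 36.0, 50.6 and 42.7 CPM in EpCAM+ and 109, 122, 229 and 330 CPM in EpCAM- libraries. Its EpCAM- libraries stood in the same order as for Mthfd1. The log2 fold change was -2.27 (SE 0.33, adjusted p = 0.000659). Xpot, a tRNA exporter, was lower as well (-0.50, adjusted p = 0.00198), but Nupr1, another stress-responsive gene, was higher at 23.8 ± 7.36 against 6.14 ± 2.84 CPM (1.95, adjusted p = 0.000971). Atf4 itself, named after its values were seen, had a log2 fold change of -0.32 (adjusted p = 0.017). Atf5, Chac1, Slc7a11 and Stc2 had too few reads to be tested, and with a filter of 10 counts in every library 1 gene of the list was higher rather than 3.

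**Figure D5:**
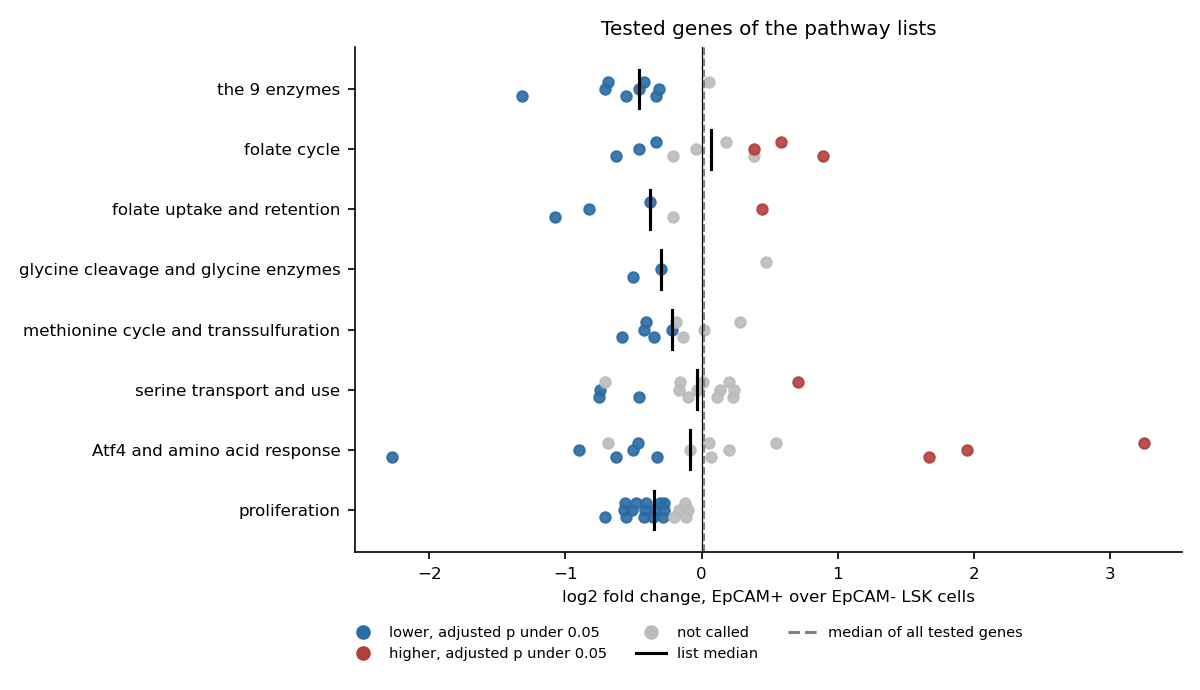
Log2 fold change, EpCAM+ over EpCAM- LSK cells (horizontal axis), of every tested gene of the 9 enzymes and 7 pathway lists, with blue for lower, red for higher and grey for genes that did not pass; black ticks mark list medians and the dashed line the median of all tested genes, 0.02. The enzymes, the proliferation list, the methionine list and the glycine list hold no red point, with medians of -0.46, -0.35, -0.22 and -0.29, and the other 4 lists hold both red and blue points.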

How the data were processed

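RNA-Seq counts of 8 libraries, 4 per fraction, were analysed, with groups and replicate numbers taken from the sample titles. RNA had been amplified with SMART-Seq v4, libraries were made from 1 ng of cDNA without molecular identifiers, and 150-bp paired ends were sequenced. Per the submitters' processing notes, reads were aligned to GRCm38.p6 with STAR 2.6.1d and counted with featureCounts 1.5.0-p3, and the notes also list DESeq2 1.20.0. The authors deposited raw counts per gene, which all tests here use, and FPKM, used only to rank levels. The deposited fold changes and p-values of the authors' own comparisons were not used. The annotation release, strandedness, treatment of reads with several alignments and the gene length behind the FPKM are not given in the sources used here.

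Genes were kept by filterByExpr, scaled by TMM and tested two-sided with edgeR's quasi-likelihood test (edgeR 4.0.16, limma 3.58.1, R 4.3.3), with Benjamini-Hochberg adjustment over 13560 genes and a threshold of 0.05. Centered log2 CPM used a prior count of 2. The procedure was run on simulated counts in which far fewer genes changed than were called here. That run therefore does not measure its error rate in these data. Figures were drawn with matplotlib 3.10.9. The 9 enzymes, the 7 pathway lists (folate cycle, folate uptake and retention, glycine cleavage and glycine enzymes, methionine cycle and transsulfuration, serine transport and use, Atf4 and amino acid response, proliferation) and the 9 marker lists were chosen with earlier results of these data known. Named in the text are the 9 enzymes, of each pathway list the 3 tested genes with the smallest adjusted p and those with too few reads, Kit, Ly6a, Epcam and Zeb1, and the 3 genes nearest to Phgdh and to Shmt2. Other genes were named after their values were seen. Gcat, Ptdss3 and Ddit3 matched no symbol in the table by these names and were not analysed here.

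Same-numbered libraries of the 2 fractions deviated together from their fraction means (correlation across genes 0.205 to 0.356 in 4 pairs, against -0.216 to 0.0396 in the 12 pairs of different numbers), so the replicate numbers pair the libraries, although what they share is not stated. Genes are not independent replicates in these correlations. No 2 libraries of a fraction were duplicates (chi-square per degree of freedom 9.80 to 91.7). Alternatives were DESeq2 1.42.0, limma-trend, scaling by size factors, upper quartile or library totals, filters of 1 count in any or 10 counts in every library, the replicate number as a block, and leaving out each library.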

Additional observations from a re-analysis of the deposited data

How the results depend on the processing

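Across 16 alternatives the called enzymes other than Phgdh passed in all 16, Phgdh in 14 and Psph in 0. Without EpCAM- library 4 the log2 fold change of Psph changed sign, to -0.00 (-0.00485, adjusted p = 0.977); it ran from there to 0.15 with 1 library left out and was not a call in any setting. The number of genes that differed, 5779 (2961 higher, 2818 lower), ran from 4662 to 6039 with 1 library left out, that of the enzymes lower was 8 each time, and the calls in pathway lists, 45, ran from 40 to 48. With upper-quartile scaling the split of calls was 3642 higher to 2083 lower, and with library totals 3476 to 2066. These scalings moved the median of all tested genes from 0.02 to 0.11, and it was 0.13 with DESeq2 and 0.14 with a filter of 1 count in any library. The replicate block gave 6818 differing genes and, apart from the count of higher genes in serine transport and use, changed no call or count described above by over 1.5 times. In upper-quartile scaling 1 gene of the methionine list was higher rather than 0, and 1 of the glycine list was lower rather than 2, as with library totals and without EpCAM- library 3. The causes were not tested. Each enzyme had 416 to 9894 reads in every library. Counting error weighs most on the enzymes with few reads, Mtr and Mthfd2, and 4 libraries per fraction limit the precision.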
